A study of Homo sapiens with 6 samples.

Results

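The 10 genes described here are the FANC family of the Fanconi anemia pathway, namely FANCA, FANCB, FANCC, FANCE, FANCF, FANCG, FANCL and FANCM, which form the core complex, and FANCD2 and FANCI, which form the ID2 pair. They were chosen by gene symbol, and all 10 were found among the 30618 genes of the count table. RNA-seq was performed in ARPE-19 cells, an established line derived from human retinal pigment epithelium, to ask which genes respond when EIF1, a translation initiation factor that helps the ribosome choose its start codon, is silenced by siRNA. The negative control (NC) group received a non-targeting siRNA and the EIF1 knockdown (siEIF1) group an siRNA against EIF1, with 3 independent replicates in each, and both groups were kept in 50 mM glucose. No library in ordinary glucose was analysed here, and the knockdown rests on a single cell line. The paper gives only a single siRNA sequence against EIF1, and effects of this siRNA on other targets were not tested.

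The Fanconi anemia pathway repairs DNA interstrand crosslinks, lesions that tie both strands of the double helix together and block replication forks. FANCM recognises the stalled fork and anchors the core complex, in which FANCL is the ubiquitin ligase. The core complex attaches ubiquitin to FANCD2 and FANCI, which clamp onto the DNA, and nucleases, translesion polymerases and recombination proteins then complete the repair. Inherited loss of genes of this pathway can cause Fanconi anemia, with bone marrow failure and cancer.

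Promoter sequences are shown for 5 members to set the 3 members with a matched promoter that fell beyond a fold change of 0.5 (FANCD2, FANCA and FANCB) beside 2 that changed little or did not pass the test (FANCL and FANCF). RefSeq promoters (GRCh38.p14) were matched for 9 of the 10 members, all but FANCI. Each line gives the 100 bases before and the first 20 bases from the RefSeq start of transcription, written on the strand of the gene, with capitals on motif matches found on either strand. The E2F motifs searched had 8 letters (TTTCCCGC, TTTCGCGC, TTTGCCGC and TTTGGCGC) or were the shorter form TTCCCGC. The CCAAT box was searched as these 5 letters, and the CHR motif as the sequence TTTGAA and, in its other form, as the sequence TTCGAA. FANCD2 lies at chr3:10026337-10026456 (forward strand), FANCA at chr16:89816628-89816747, FANCB at chrX:14873050-14873169, FANCF at chr11:22625804-22625923 and FANCL at chr2:58241306-58241425 (all reverse strand).
FANCD2: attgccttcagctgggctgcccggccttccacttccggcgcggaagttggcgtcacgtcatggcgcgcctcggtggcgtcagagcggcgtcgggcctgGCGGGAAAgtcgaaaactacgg
FANCA: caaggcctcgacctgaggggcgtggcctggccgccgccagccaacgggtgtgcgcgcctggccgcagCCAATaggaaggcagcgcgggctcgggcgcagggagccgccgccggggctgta
FANCB: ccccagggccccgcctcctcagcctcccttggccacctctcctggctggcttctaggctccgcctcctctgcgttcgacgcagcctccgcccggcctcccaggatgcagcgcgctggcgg
FANCF: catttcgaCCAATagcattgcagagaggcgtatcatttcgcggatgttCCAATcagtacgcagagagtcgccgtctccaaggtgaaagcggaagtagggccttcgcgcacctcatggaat
FANCL: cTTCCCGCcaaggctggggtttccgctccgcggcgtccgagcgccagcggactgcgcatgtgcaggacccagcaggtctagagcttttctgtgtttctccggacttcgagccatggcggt
E2F proteins switch on genes of DNA replication, and the CHR motif is bound by complexes that repress and activate cell cycle genes. In the whole window of 300 bases, an 8-letter E2F motif was present in FANCA, FANCC and FANCD2, against 3.31% of all 35116 RefSeq promoters of this length. The motif in FANCD2 spans the start of transcription, and the motif in FANCA begins 172 bases before the start, outside the stretch shown. The shorter TTCCCGC, which is contained in TTTCCCGC, was present in FANCC, FANCD2, FANCE, FANCG and FANCL (6.55% of all promoters). CCAAT was found in FANCA, FANCF and FANCM (34.6% of all promoters), and a CHR motif only in 1 of the 2 promoters listed for FANCC (16.4% of all promoters). FANCB held none of these letters in its window.

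The libraries held between 26499929 and 31431479 counts. EIF1 itself fell to 8.34% of its NC level (log2 fold change -3.58, standard error 0.055, adjusted p = 1.08e-13 by edgeR, with p-values adjusted over all 16749 genes tested). Of 13 markers of retinal pigment epithelium, 11 were in the count table, and RPE65 and TTR were not analysed here. MITF, OTX2, BEST1, KRT8 and KRT18 had mean FPKM from 5.84 to 326.5 in the NC group, with 66.0 for BEST1. Genes overlapping these markers were not examined, and whether the counting used the strand is not stated. Their levels, that of BEST1 among them, may therefore include reads of other genes. SERPINF1 had 1.7 FPKM. The visual cycle and pigment genes that were counted were near 0. Their NC means were 0.12 FPKM for LRAT, 0.237 for RLBP1, 0.27 for PMEL, 0.0633 for TYRP1 and 0.0067 for TYR. In siEIF1 cells 3 of the 9 tested markers rose (edgeR, adjusted p under 0.05), against 10.2% of all tested genes. These were RLBP1 (log2 fold change 1.55), KRT8 (0.24) and KRT18 (0.25). RLBP1 rested on few counts, with 16, 11 and 17 in the NC libraries. The part of these markers in the results for the FANC genes was not tested. The summed FPKM of leukocyte markers stayed between 0.02 and 0.05 in every library and that of endothelial markers between 0.14 and 0.26.

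Among the 10 FANC members, 9 fell in siEIF1 cells at an adjusted p under 0.05, 0 rose, and FANCF did not pass the test (edgeR's quasi-likelihood test). Over all tested genes 20.6% were called by the same rule, of which 10.4% of the tested genes fell and 10.2% rose. With the additional limit of a fold change below 0.5, 4 members fell (FANCA, FANCB, FANCD2 and FANCI), against 1.31% of all tested genes, and 0 rose above a fold change of 2, against 0.4% of all tested genes. Of the 9 members other than FANCB, which passed the filter on low counts only through the NC group, 8 fell, and 3 of them beyond the limit. The median log2 fold change was -0.46 for these 9 members and 0.0033 for all tested genes. In bulk libraries, fewer cells that express a gene and less RNA per cell cannot be told apart.

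FANCD2, the substrate whose ubiquitination marks activation of the pathway, was counted 258, 248 and 270 times in NC replicates 1 to 3 and 115, 110 and 102 times in siEIF1 replicates 1 to 3. As CPM, which scales each count to the total of its library, this was 9.33 ± 0.536 (SD, n = 3) in NC and 3.63 ± 0.192 (SD, n = 3) in siEIF1 cells. Every siEIF1 library lay far below every NC library, and the nearest libraries of the groups were still apart by 1.20 on the log2 CPM scale. The log2 fold change of FANCD2 was -1.36 (standard error 0.111, adjusted p = 2.62e-06 by edgeR), leaving 39.0% of the NC level. FANCI, its partner in the clamp, was counted 656, 630 and 622 times in NC and 340, 268 and 285 times in siEIF1 libraries. This corresponds to 22.9 ± 1.52 CPM (SD, n = 3) in NC and 9.90 ± 0.916 CPM (SD, n = 3) in siEIF1 cells, again without overlap. FANCI fell by 1.21 on the log2 scale (standard error 0.0852, adjusted p = 9.27e-07 by edgeR), to 43.2% of the NC level. The proportion of the partners to each other did not separate the groups. The log2 CPM of FANCI minus that of FANCD2 was 1.30 ± 0.0817 (SD, n = 3) in NC and 1.44 ± 0.143 (SD, n = 3) in siEIF1 libraries.

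**Figure D1:**
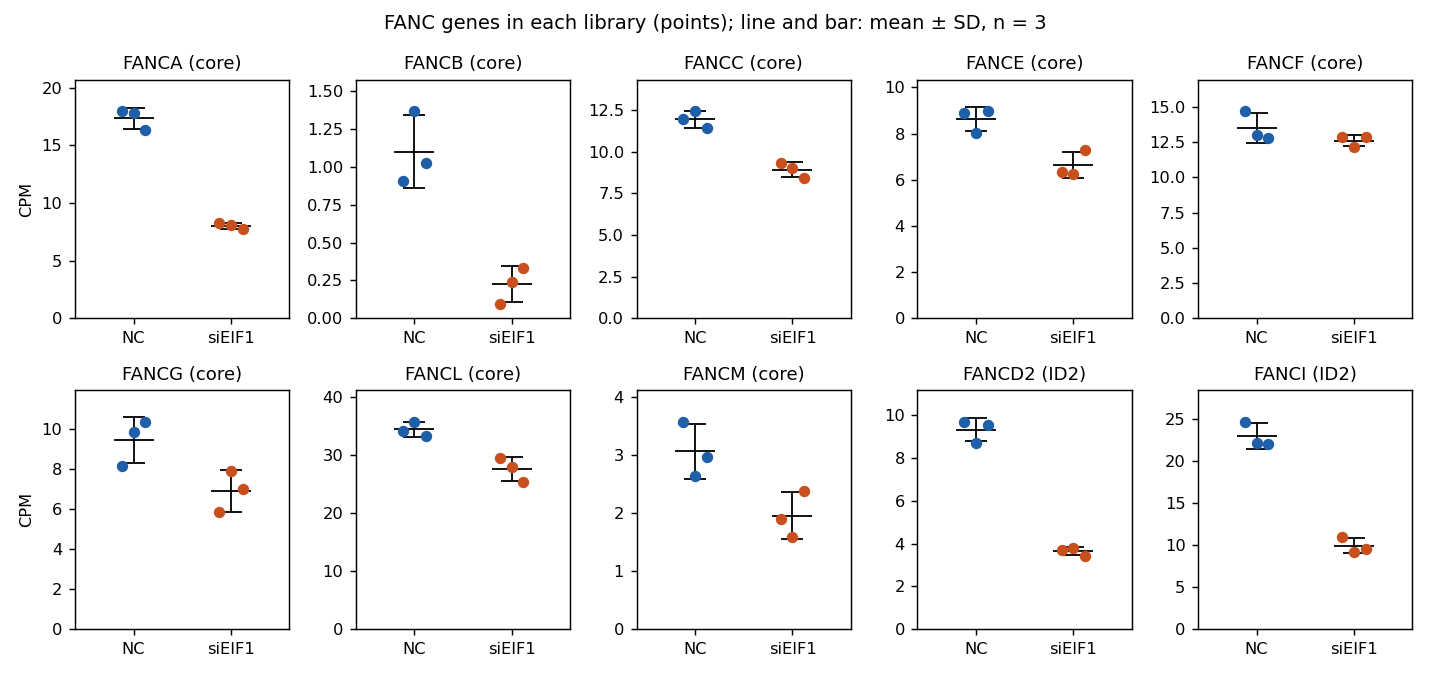
CPM (vertical axes, from 0) of the 10 FANC genes in the 3 NC and 3 siEIF1 libraries, 1 panel per gene, with points for libraries and a line with a bar for the mean ± SD. The groups are apart in every panel except that of FANCF, and the distance is widest for FANCA, FANCB, FANCD2 and FANCI.

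Within the core complex, FANCA and FANCB had the largest differences. FANCA, which forms a subcomplex with FANCG, was counted 478, 506 and 461 times in NC and 256, 236 and 231 times in siEIF1 libraries. Its level was 17.4 ± 0.918 CPM (SD, n = 3) in NC and 8.03 ± 0.262 CPM (SD, n = 3) in siEIF1 cells. The siEIF1 libraries of FANCA were close to one another and all below the NC libraries. The log2 fold change of FANCA was -1.11 (standard error 0.0809, adjusted p = 1.21e-06 by edgeR), with a 95% interval from -1.29 to -0.94. FANCA was among the genes that the study selected for display on these libraries, so its direction here is not independent evidence. The paper reports that RT-qPCR on separate biological replicates also found FANCA differentially expressed, matching its RNA-seq data.

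FANCB, which holds FANCL and the accessory protein FAAP100 in the catalytic module of the core complex, was the least abundant member. It was counted 24, 39 and 29 times in NC libraries and only 3, 7 and 10 times in siEIF1 libraries. All siEIF1 libraries had less FANCB than any NC library, and they varied among themselves from 0.0965 to 0.335 CPM. The log2 fold change was -2.29 with a wide standard error of 0.386 (adjusted p = 0.00101 by edgeR) and a 95% interval from -3.12 to -1.45. All siEIF1 values were under the filter limit of 0.345 CPM in at least 3 libraries, so a gene of this level could enter the test only if its NC values were higher. Leaving out each library in turn moved the log2 fold change of FANCB between -2.70 and -1.92.

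The other core members changed less. FANCL, the ligase subunit and the most highly counted member, was counted 908, 1018 and 940 times in NC and 914, 813 and 758 times in siEIF1 libraries. After scaling for depth, these were 34.4 ± 1.27 CPM (SD, n = 3) and 27.6 ± 2.04 CPM (SD, n = 3), and the groups did not overlap. FANCL fell by 0.32 on the log2 scale (standard error 0.067, adjusted p = 0.00447 by edgeR), to 80.2% of the NC level. FANCC, which binds FANCE and FANCF in the substrate-recognition module, went from 11.9 ± 0.506 to 8.92 ± 0.47 CPM (SD, n = 3 each; log2 fold change -0.42, standard error 0.0863, adjusted p = 0.00383 by edgeR). Its siEIF1 libraries also lay below all NC libraries.

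FANCE, the member that contacts FANCD2, had CPM of 8.88, 8.05 and 8.99 in NC and 6.34, 6.26 and 7.27 in siEIF1 libraries. Its log2 fold change was -0.38 (standard error 0.104, adjusted p = 0.0193 by edgeR). FANCG, a scaffold for FANCA, had CPM of 8.13, 9.84 and 10.4 in NC and 5.82, 7.91 and 6.97 in siEIF1 libraries, so that the highest siEIF1 library nearly reached the lowest NC library. The log2 fold change of FANCG was -0.46 (standard error 0.128, adjusted p = 0.0218 by edgeR). FANCM, the DNA translocase that anchors the complex, was counted 95, 75 and 84 times in NC and 59, 46 and 71 times in siEIF1 libraries, and fell by 0.64 on the log2 scale (standard error 0.197, adjusted p = 0.0333 by edgeR).
The calls of these 3 members were lost when some single libraries were left out, which also leaves fewer libraries for the test. FANCE had an adjusted p from 0.0529 to 0.0773 (edgeR) without NC replicate 1, NC replicate 3, siEIF1 replicate 1 or siEIF1 replicate 2. FANCG had an adjusted p from 0.0683 to 0.102 (edgeR) without NC replicate 2, NC replicate 3 or siEIF1 replicate 1. For FANCM the adjusted p was 0.0622 to 0.148 (edgeR) without NC replicate 1, NC replicate 3, siEIF1 replicate 1 or siEIF1 replicate 2. All of these values kept a negative sign.

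FANCF, the single-exon adaptor of the core complex, did not pass the test. It was counted 391, 371 and 362 times in NC and 399, 353 and 383 times in siEIF1 libraries, and the CPM of the groups overlapped (12.8 to 14.7 in NC and 12.1 to 12.8 in siEIF1). The log2 fold change of FANCF was -0.10 (adjusted p = 0.442 by edgeR), and its 95% interval from -0.28 to 0.077 excludes a fall as large as that of any member called beyond the limit of 0.5. For a single member, 3 libraries against 3 allow no two-sided exact permutation p below 0.1, and this value was reached by all members except FANCF (exact permutation test, p = 0.3). The groups of these 9 members did not overlap, with siEIF1 lower, as for 19.0% of all tested genes, while 18.1% were apart with siEIF1 higher.

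The core complex and the ID2 pair were then set side by side. The core members had a median log2 fold change of -0.44, and the mean for FANCD2 and FANCI was -1.28. In each library, the mean log2 CPM of the core members was subtracted from that of FANCD2 and FANCI. This difference was 0.875, 0.691 and 0.801 in NC replicates 1 to 3 and 0.445, 0.196 and 0.0434 in siEIF1 replicates 1 to 3, so the ID2 transcripts lost ground to the core transcripts in every siEIF1 library. When FANCB was left out of the core, the difference was 0.369 ± 0.0519 (SD, n = 3) in NC and -0.42 ± 0.101 (SD, n = 3) in siEIF1 libraries. The family did not divide strictly along this line, however. The 95% interval of FANCA overlapped those of FANCD2 (-1.60 to -1.12) and FANCI (-1.39 to -1.03). The intervals of FANCC, FANCE, FANCF, FANCG and FANCL all lay above those of FANCA and the ID2 pair. The wider interval of FANCM (-1.07 to -0.22) overlapped those of FANCA and FANCI, and that of FANCB (-3.12 to -1.45) overlapped that of FANCD2.

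**Figure D2:**
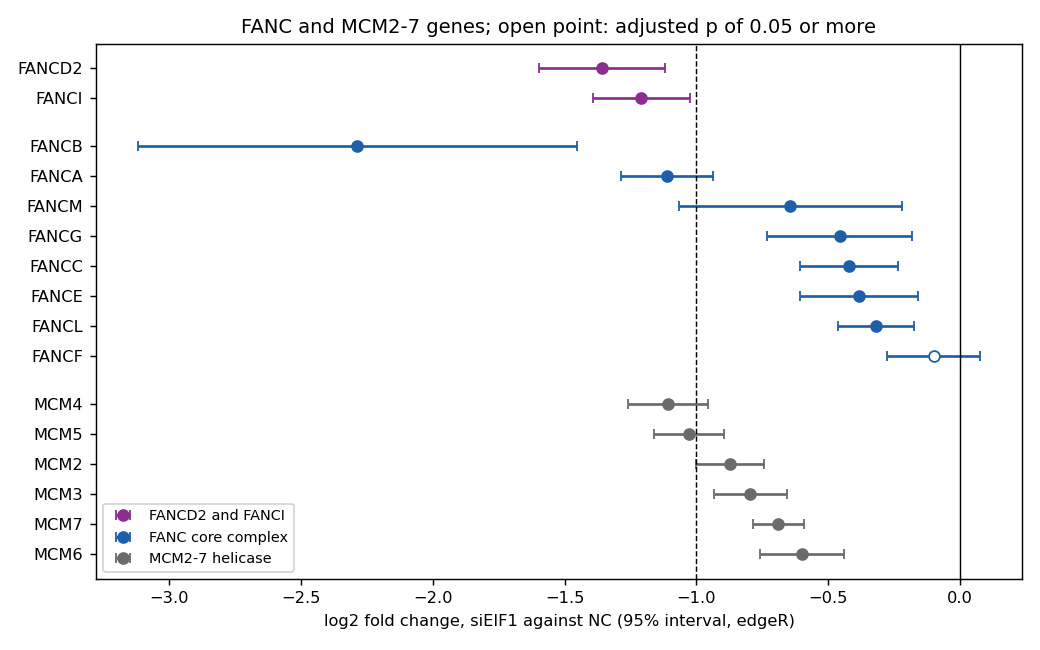
Log2 fold change of siEIF1 against NC (horizontal axis) with its 95% interval from edgeR for FANCD2 and FANCI, the 8 core members and the 6 subunits of the MCM2-7 helicase, with an open point where the adjusted p was 0.05 or more. The dashed line marks a fold change of 0.5, and FANCD2, FANCI, FANCA and FANCB are the FANC genes whose points lie beyond it.

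The abundance of the members spanned a wide range. On the deposited FPKM scale, which is per length, FANCL was highest in NC cells with 11.7 ± 0.31 (SD, n = 3). FANCF (3.37 FPKM), FANCE (2.61 FPKM), FANCG (2.19 FPKM), FANCI (1.59 FPKM), FANCA (1.46 FPKM), FANCC (0.763 FPKM), FANCD2 (0.647 FPKM), FANCM (0.293 FPKM) and FANCB (0.253 FPKM) followed in that order. FANCE and FANCG overlapped in their NC libraries, as did FANCM and FANCB, and the other neighbours in this order did not overlap. The same order of means was found in siEIF1 cells, where FANCI and FANCA overlapped at 0.677 ± 0.0702 and 0.667 ± 0.0115 FPKM (SD, n = 3 each). The summed FPKM of the 8 core members was 22.5 to 22.8 in NC and 17.1 to 17.7 in siEIF1 libraries, and that of FANCD2 and FANCI was 2.12 to 2.37 in NC and 0.86 to 1.0 in siEIF1 libraries.

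The order depends on the length used. The counts and FPKM of FANCD2 imply a length of 14580 bases, and those of FANCI 14530 bases, whereas their canonical transcripts (GENCODE release 44) have 5096 and 4733 bases. For FANCL the implied length was 2953 bases and the canonical length 1658 bases. When CPM was divided by the canonical length, FANCL still led in NC cells with 20.8 ± 0.767 CPM per kilobase (SD, n = 3), and FANCI moved up to position 2 with 4.85 ± 0.321 CPM per kilobase (SD, n = 3). FANCF, FANCG, FANCE and FANCA came next at 4.11 to 3.18 CPM per kilobase, each overlapping its neighbour. In siEIF1 cells FANCI stood in position 5 on this scale, with 2.09 ± 0.194 CPM per kilobase (SD, n = 3), below FANCF, FANCG and FANCE and overlapping FANCC. FANCD2, FANCM and FANCB took the last 3 positions on both scales and in both groups.

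**Figure D3:**
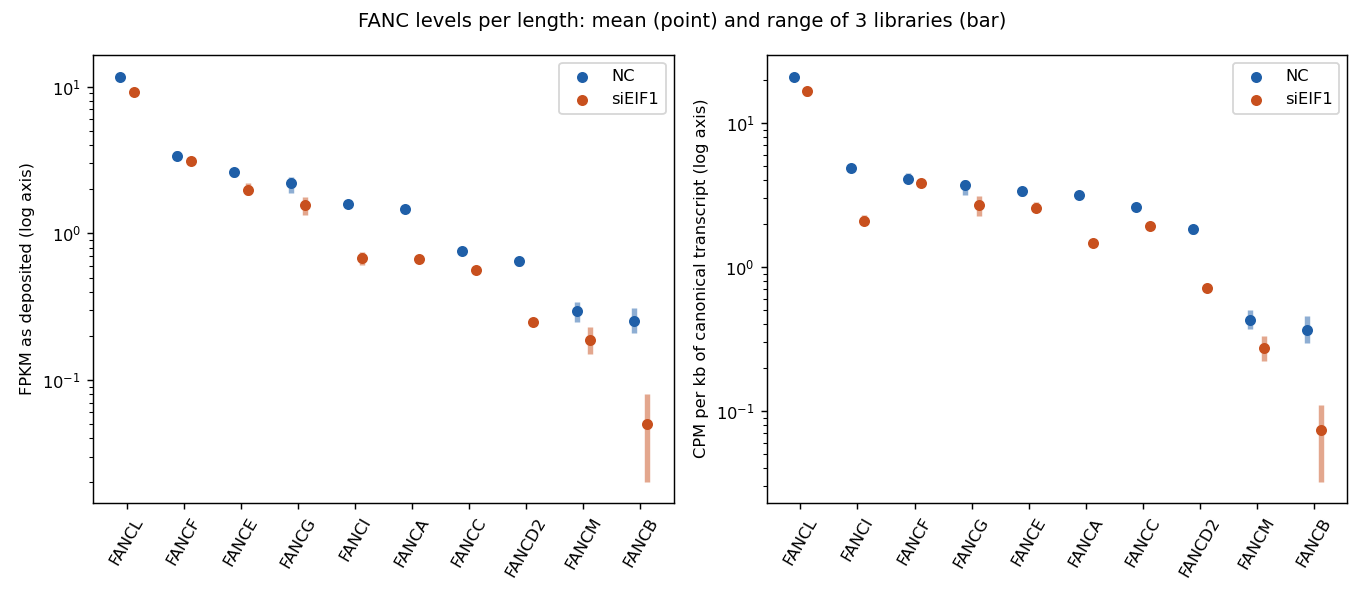
Levels of the FANC genes per length on log axes, as deposited FPKM (left) and as CPM per kilobase of the canonical transcript (right), with points for the mean and bars for the range of 3 libraries in NC and siEIF1 cells. FANCL is highest and FANCB lowest on both scales, and FANCI stands in position 5 on the left and position 2 on the right in NC cells.

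Several members share ground with other genes. The libraries are described as directional in both the labels and the methods of the study, which differ in the preparation they describe, and whether the counting used the strand is not stated. Counts of overlapping genes are therefore uncertain. On GRCh38 (GENCODE release 44), FANCA lies on chromosome 16 from 89726683 to 89816977 (reverse strand) and shares 14243 bases with ZNF276 on the opposite strand. ZNF276 had a log2 fold change of -0.06 (adjusted p = 0.522 by edgeR). FANCI, on chromosome 15 from 89243945 to 89317261, shares 12064 bases with POLG, the mitochondrial DNA polymerase, which lies on the opposite strand and had a log2 fold change of -0.01 (adjusted p = 0.894 by edgeR). Neither neighbour passed the test.
FANCB, on chromosome X from 14690388 to 14873255, starts 166 bases from MOSPD2, which runs in the opposite direction. MOSPD2 had a log2 fold change of -0.09 (adjusted p = 0.509 by edgeR) while FANCB fell to 20.5% of its NC level. FANCC overlaps 52740 bases of AOPEP, an aminopeptidase gene on the opposite strand, and AOPEP rose (log2 fold change 0.27, adjusted p = 0.0399 by edgeR) where FANCC fell. FANCL shares 678 bases with VRK2 (log2 fold change -0.19, adjusted p = 0.0514 by edgeR), and FANCM starts 611 bases from FKBP3 (log2 fold change -0.05, adjusted p = 0.553 by edgeR). FANCF shares 315 bases with GAS2 (log2 fold change -0.31, adjusted p = 0.519 by edgeR). FANCG shares 341 bases with an unnamed protein-coding gene on the same strand, where counting by strand would not separate them. That gene had a log2 fold change of -0.29 (adjusted p = 0.384 by edgeR). FANCD2OS, which overlaps FANCD2 on the opposite strand, had 7 counts over the NC libraries and 0 over the siEIF1 libraries, too few for a fold change.

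The rest of the pathway was examined by role. Of 36 other Fanconi pathway genes, all tested, 16 fell and 0 rose (edgeR, adjusted p under 0.05), and 7 fell beyond a fold change of 0.5. Over all tested genes 10.4% fell, 10.2% rose and 1.31% fell beyond that limit. The median log2 fold change of the 36 genes was -0.31. The recombination effectors, which rebuild the broken fork on the sister chromatid, had 7 of 8 members lower and a median of -1.32. BRCA1 fell by 1.95 (standard error 0.115, adjusted p = 3.77e-07 by edgeR), from 1.29 to 0.33 FPKM. XRCC2 (log2 fold change -1.69), BRCA2 (-1.51) and BRIP1 (-1.30), a DNA helicase, also fell beyond the limit, and BARD1 (-0.97) and RAD51C (-0.36) fell within it. PALB2, the bridge between BRCA1 and BRCA2, had a log2 fold change of -0.10 (adjusted p = 0.354 by edgeR).

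In the ubiquitin cycle, UBE2T, the E2 enzyme that works with FANCL, fell by 0.95 on the log2 scale (standard error 0.117, adjusted p = 8.89e-05 by edgeR), more than FANCL itself. USP1, the protease that removes ubiquitin from FANCD2, fell by 0.52 (adjusted p = 3.17e-04 by edgeR), whereas its cofactor WDR48 had a log2 fold change of 0.085 (adjusted p = 0.308 by edgeR). RFWD3, a ubiquitin ligase that acts on RPA, fell by 0.42 (adjusted p = 0.00138 by edgeR). Thus 3 of these 4 genes fell, against 10.4% of all tested genes. Of the 5 accessory proteins of the core complex, only CENPX fell, by 0.31 (adjusted p = 0.0195 by edgeR). With so few genes, this cannot be told from the share of 10.4% over all tested genes. The other 4 did not pass, with log2 fold changes from -0.61 for FAAP24 to 0.19 for FAAP100.

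Of the 11 genes for nucleases that process the crosslink and for their partner proteins, 3 fell, against 10.4% of all tested genes. These were EME1 (log2 fold change -1.04), DCLRE1B (-0.67) and DCLRE1A (-0.30), and the median of the 11 genes was -0.0014. The partners ERCC1 and ERCC4, which cut together as one heterodimer, had log2 fold changes of -0.0014 and 0.025. MUS81, the catalytic partner of EME1, had a log2 fold change of 0.11 (adjusted p = 0.262 by edgeR). SLX1A and SLX1B are near-identical copies and their counts are uncertain. None of the 4 translesion synthesis genes passed the test, by edgeR at an adjusted p under 0.05, where 20.6% of all tested genes passed. With so few genes, this cannot be told from the share over all tested genes. Their log2 fold changes ran from -0.18 for POLN to 0.10 for REV1. In the BLM dissolvasome, which untangles recombination intermediates, the helicase BLM fell by 1.59 (adjusted p = 1.00e-04 by edgeR) and RMI2 by 0.90 (adjusted p = 7.79e-05 by edgeR), while TOP3A (-0.19) and RMI1 (-0.33) did not pass.

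**Figure D4:**
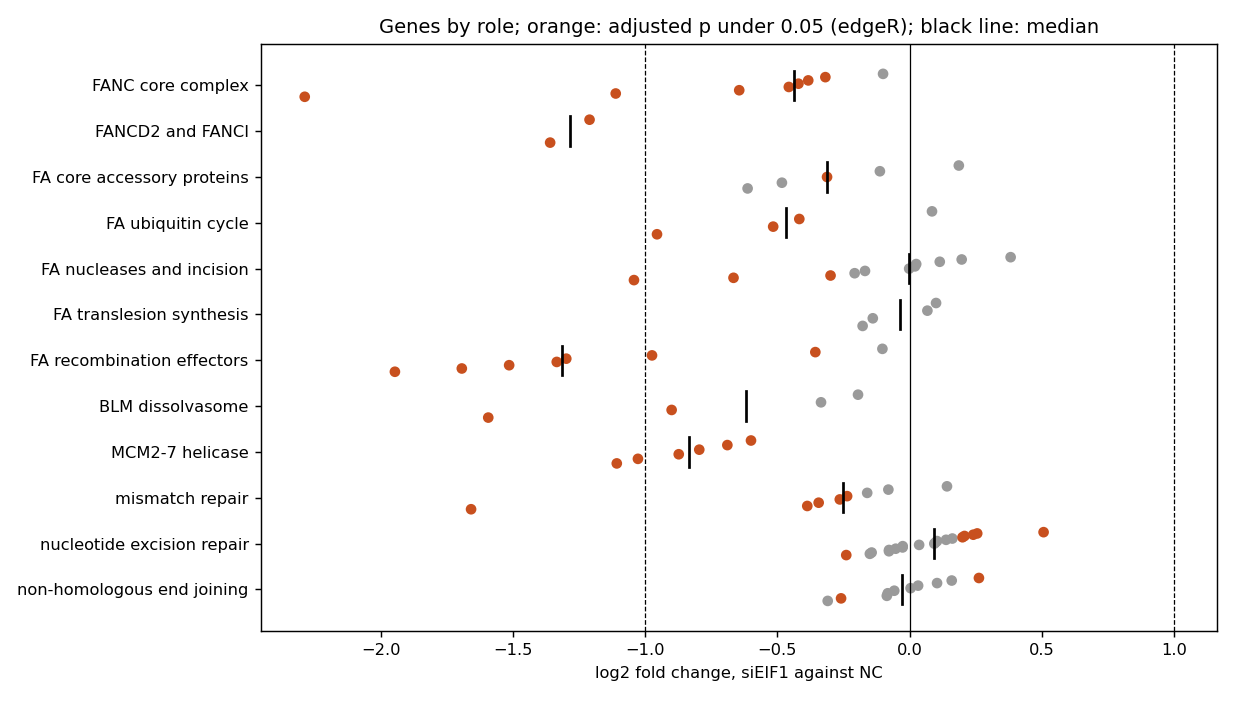
Log2 fold change of siEIF1 against NC (horizontal axis) for every tested gene of 12 lists, in orange where the adjusted p from edgeR was under 0.05, with a black line at the median of the list and dashed lines at fold changes of 0.5 and 2. The recombination effectors and the ID2 pair have the lowest medians, -1.32 and -1.28, and nucleotide excision repair and end joining lie around 0.

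Other repair and replication families gave a frame for these values. All 6 subunits of the MCM2-7 helicase, which unwinds DNA at the fork, fell, with a median log2 fold change of -0.83. They ranged from -1.11 for MCM4 to -0.60 for MCM6. The study also chose MCM4 on these libraries, and the paper reports that RT-qPCR on separate replicates found it differentially expressed too. In mismatch repair 5 of 8 genes fell, among them EXO1 (-1.66) and PMS1 (-0.34), and the median was -0.25. In nucleotide excision repair, 1 of 19 genes fell (ERCC3) and 5 rose, with ERCC6 at 0.51, and the median was 0.094. In non-homologous end joining, 1 of 10 genes fell (PAXX, -0.26) and 1 rose (POLL, 0.26), with a median of -0.03. For comparison, 10.4% of all tested genes fell and 10.2% rose, so the 1 of 10 in each direction for end joining is close to the share over all genes. These are descriptions of each family, and the difference between families was not tested.

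Each FANC gene was also set against the mean log2 CPM of MCM2 to MCM7 in the same library. FANCD2 moved from -2.57 ± 0.0921 (SD, n = 3) in NC to -3.08 ± 0.134 (SD, n = 3) in siEIF1 libraries, a change of -0.51 beyond that of the helicase. FANCI changed by -0.36 and FANCA by -0.26 relative to the helicase, and their groups did not overlap. FANCB changed by -1.49 on this scale, but its groups overlapped when log2(FPKM + 0.1) was used, with a change of -0.39. In the opposite direction, FANCF (0.75), FANCL (0.53), FANCE (0.46) and FANCC (0.43) were higher relative to the helicase in every siEIF1 library than in any NC library. FANCG (0.39) and FANCM (0.20) overlapped between the groups on the CPM scale. With log2(FPKM + 0.1) both were higher in all siEIF1 libraries than in any NC library, with changes of 0.40 and 0.39. Adding 0.1 shrinks changes at low FPKM. FANCM had a mean of 0.293 FPKM in NC and 0.187 in siEIF1 cells, and FANCB 0.253 and 0.05. The values of FANCM and FANCB on that scale therefore depend on the added 0.1.
Markers of proliferating cells moved with the family. All 10 fell (edgeR, adjusted p under 0.05), against 10.4% of all tested genes. RRM2 (-1.73), CDK1 (-1.66) and TOP2A (-1.54) had the smallest p-values, and the median log2 fold change of the markers was -1.28. Their summed FPKM was 112.5 to 117.5 in NC and 83.1 to 88.8 in siEIF1 libraries. Most of this sum came from PCNA (67.0 FPKM in NC, log2 fold change -0.28) and TYMS (26.5 FPKM in NC, log2 fold change -0.22), the markers that changed least. The part of the proliferation markers in the changes of the FANC genes was not tested.

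**Figure D5:**
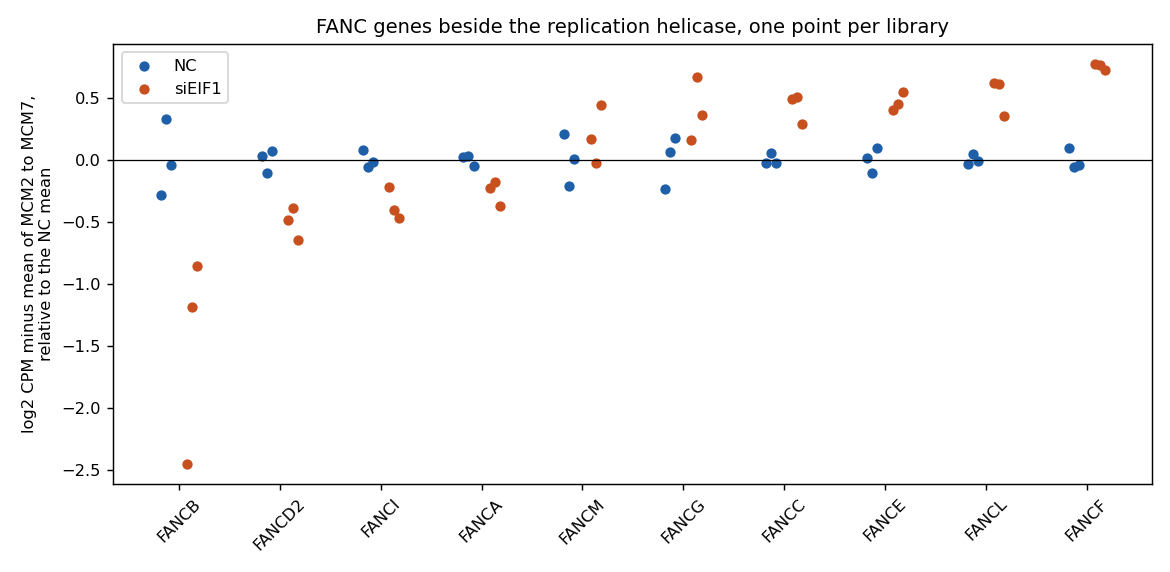
Log2 CPM of each FANC gene minus the mean of MCM2 to MCM7 in the same library, shown relative to the NC mean (vertical axis), with 3 points for NC and 3 for siEIF1 libraries. FANCB, FANCD2, FANCI and FANCA lie below 0 in all siEIF1 libraries, and FANCC, FANCE, FANCL and FANCF lie above all of their NC points.

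The genes whose pattern was most like that of FANCD2, FANCI and FANCA were sought among 13374 genes with a mean count of at least 50, by the root mean square difference of log2 CPM, centred on the NC mean, over the 6 libraries. For FANCD2 the closest were BRIP1 (difference 0.0908), the single-strand binding subunit RPA2 (0.0992) and the helicase MCM8 (0.101). For FANCA they were the flap nuclease FEN1 (0.0529), the clamp loader subunit RFC4 (0.0555) and the spindle protein TPX2 (0.0568). For FANCI they were DERL3 (0.053), CDCA7 (0.0716) and CTD-2116N17.1 (0.0861). The 9 genes had log2 fold changes from -1.32 for MCM8 to -1.11 for FEN1. All points share the same 6 libraries, and the likeness is mostly that of the step between the groups.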

How the data were processed

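RNA-seq counts and FPKM of 6 ARPE-19 libraries were used, grouped by sample title into NC and siEIF1 (3 each). The authors trimmed reads with FASTX-Toolkit, aligned them to GRCh38 with HISAT2 and deposited raw counts of uniquely mapped reads per gene. The authors also deposited FPKM values, rounded to 2 decimals, for 30275 of the 30618 genes. The counting program, its strand setting and the annotation release are not given in the sources used here, so counts of overlapping genes are uncertain. Of the value columns, 0 were left unmatched.

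Low-count genes were removed with filterByExpr (minimum count 10), and 16749 genes were fitted with edgeR 4.0.16 under R 4.3.3 (TMM, quasi-likelihood test), with Benjamini-Hochberg adjusted p-values. Standard errors came from the F statistic. CPM uses TMM-scaled totals, and log2 CPM adds 0.5 to each count. The test was checked on simulated counts with large changes in well-counted genes only. That check did not cover small changes or counts as low as those of FANCB. Alternatives were DESeq2 1.42.0, limma 3.58.1 on log2(FPKM + 1) or log2(FPKM + 0.1), RLE scaling, other filters, a replicate block and leaving out each library. Libraries of one group differed by more than sampling noise (3.03 to 14.1 in chi-square per degree of freedom). Counting error limits genes with few counts, FANCB most of all.

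Gene lists were matched by Ensembl ID. Named are the members, EIF1, pathway genes that passed the test, list members with the smallest p-values, overlapping or adjacent genes (starts within 1000 bases) and the 3 nearest patterns. Other genes and the promoter motifs were named after their values or sequences were seen. The members and lists were chosen with earlier results of these data known. Values of some named genes are not reported here.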

Additional observations from a re-analysis of the deposited data

How the results depend on the processing

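FANCA, FANCD2, FANCI and FANCL kept an adjusted p under 0.05 and a negative sign under every alternative that tested them, and FANCF passed under none of 14. FANCB was removed by a filter of 10 counts in every library and by a mean FPKM of at least 1, and DESeq2 gave it no adjusted p. FANCC lost its call with limma on log2(FPKM + 1) and log2(FPKM + 0.1), where the adjusted p was 0.11 and 0.125, and FANCE, FANCG and FANCM lost theirs in both of these fits and when single libraries were left out. With a mean FPKM of at least 1, FANCE (limma, adjusted p = 0.021) and FANCG (0.0349) passed, and FANCC and FANCM were not tested. No log2 fold change of a member reversed.

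With limma on log2(FPKM + 1), 5 members fell and 0 beyond the fold limit, the median of the core members was -0.27, the mean of FANCD2 and FANCI was -0.51 and the difference between them was -0.25, on a scale that understates changes at low FPKM. In that fit 0 other pathway genes fell beyond the limit, 2 mismatch repair genes fell, 2 excision repair genes rose and 0 end joining genes rose. With log2(FPKM + 0.1), 5 members fell, the mean of FANCD2 and FANCI was -1.11, 3 other pathway genes fell beyond the limit, 2 mismatch repair genes fell, 2 excision repair genes rose and 0 end joining genes rose. With log2(FPKM + 1) and a mean FPKM of at least 1, 5 of the 6 members left fell and 0 beyond the limit, 7 of the 20 other pathway genes left fell and 0 beyond the limit, the mean of FANCD2 and FANCI was -0.63 (FANCI alone) and the difference from the core was -0.32. Without a filter on low counts, 2 end joining genes fell. Relative to MCM2 to MCM7, log2(FPKM + 0.1), which also understates changes at low FPKM, gave changes of -0.17 for FANCA, -0.39 for FANCB and -0.25 for FANCD2. Leaving out each library gave 6 to 9 members lower (the lowest count arose without NC replicate 3 or siEIF1 replicate 1) and 4 beyond the limit, 0 to 1 other pathway genes higher (1 without NC replicate 2) and 0 to 1 end joining genes lower (0 without NC replicate 2). CPM per kilobase of the canonical transcript, chosen after seeing the data, put FANCI in position 2, FANCF in position 3 and FANCE in position 5 in NC cells.

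The replicate numbers were not taken as pairs, and the paper describes the replicates of each condition as independent. The deviations of same-numbered libraries from their group means correlated at 0.155, 0.0885 and 0.121. Every library correlated best with its own number, so these values do not decide whether the numbers are pairs. With the replicate block, 9 members fell, 1 other pathway gene rose and 2 end joining genes fell, and over all genes 2128 fell and 2149 rose, against 1744 and 1702 without it.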
